A study of Mus musculus with 6 samples.

Results

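The clotting factors, clotting inhibitors and complement proteins that hepatocytes secrete into blood were followed in liver tumours and non-tumorous liver of mice. The list held 37 genes, chosen for this function, and a gene was measured where an array feature was annotated with its symbol alone. On that rule 33 of the 37 were measured, each by 1 feature, among 17019 genes tested, and all 33 passed the filter on dim features. C3, the central complement protein, and Cpb2, a carboxypeptidase that slows clot breakdown, had no such feature. Klkb1, plasma prekallikrein, shared its feature with Cyp4v3, and C5 was annotated under its mouse symbol Hc and is given with the other complement genes. All 6 samples came from C57BL/6 mice aged 24 months with a hepatocyte deletion of the splicing factor Srsf3 (labelled SRSF3HKO), and no liver with intact Srsf3 was analysed here. Of these, 3 arrays held non-tumorous liver (numbers 405, 483 and 623) and 3 held hepatocellular carcinoma (numbers 405, 483 and 616). The labels give neither the driver of the deletion nor whether equal numbers mark 1 animal, and the p-values below measure the spread between these samples, which may be technical.

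Clotting runs as a cascade in which one protease cuts and activates the next, ending with thrombin, which turns fibrinogen into fibrin. Inhibitors such as antithrombin and protein C hold the cascade in check, and plasmin dissolves the clot. Complement is a parallel cascade that marks microbes and ends in a pore, the membrane attack complex, built from C5b to C9. The liver parenchyma makes most of the proteins of both systems, so their transcripts serve as products of differentiated hepatocytes.

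Levels are log2(intensity + 16) of the authors' intensities, brought here to one distribution over the 6 arrays by quantile normalization. Values of a gene are listed in the order of the numbers, first for the non-tumour and then for the tumour arrays, and a difference is tumour minus non-tumour. As deposited, the arrays differed in brightness, with median intensities of 122 to 197 in non-tumour and 83.6 to 151 in tumour. Srsf3 itself lay at 10.51, 10.55 and 9.36 in non-tumour and at 10.79, 10.55 and 9.89 in tumour. No source used here places its feature inside or outside the deleted exons, so it does not check the deletion. Non-tumour 623 stood apart in genes of the sex chromosomes: as deposited, its log2 level of Xist was 5.39, where the remaining 5 arrays had 10.55 to 12.07. Its level of Eif2s3y, a gene of the Y chromosome, was 9.48, where they had 4.15 to 5.14. Hepatocyte reference genes were bright on every array, and Alb sat at the top of the common distribution (13.33) on 4 of the 6. The summed quantile-normalized intensity over the 16 of 22 such genes measured was 95087 to 103304 in non-tumour and 80137 to 96524 in tumour, lowest in tumour 405. In whole tissue, fewer hepatocytes and less transcript per hepatocyte cannot be told apart.

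None of the 33 genes passed the test between tumour and non-tumour (limma, smallest adjusted p = 0.917). The same fit called 0% of all genes higher and 0% lower. With unadjusted p-values under 0.05, 1 of the 33 was lower, C9, against 0.993% of all genes, and 0 of the 33 were higher, against 2.65%. The groups did not overlap for 6 genes. C9, F7 and F11 were lower on every tumour array than on every non-tumour array, 3 of 33 where 3.91% of all genes were. F13b, Serpinc1 and Mbl1 were higher on every tumour array, again 3 of 33, where 3.93% of all genes were. Differences were below 0 for 25 of the 33, with a median of -0.15 log2 units, beside 56.5% of all genes and a median of -0.05. They ran from -1.43 for C9 to 0.62 for C8g. The share below 0 depended on the scaling of the arrays. As deposited, 27 of the 33 were below 0, beside 84.7% of all genes. After scaling to the hepatocyte reference genes 18 were, beside 74.8% of all genes. With 3 arrays a group, an exact two-sided permutation test of a single gene cannot go below p = 0.1. Each of the 6 genes has this value because its groups do not overlap, so it adds nothing to that separation.

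**Figure D1:**
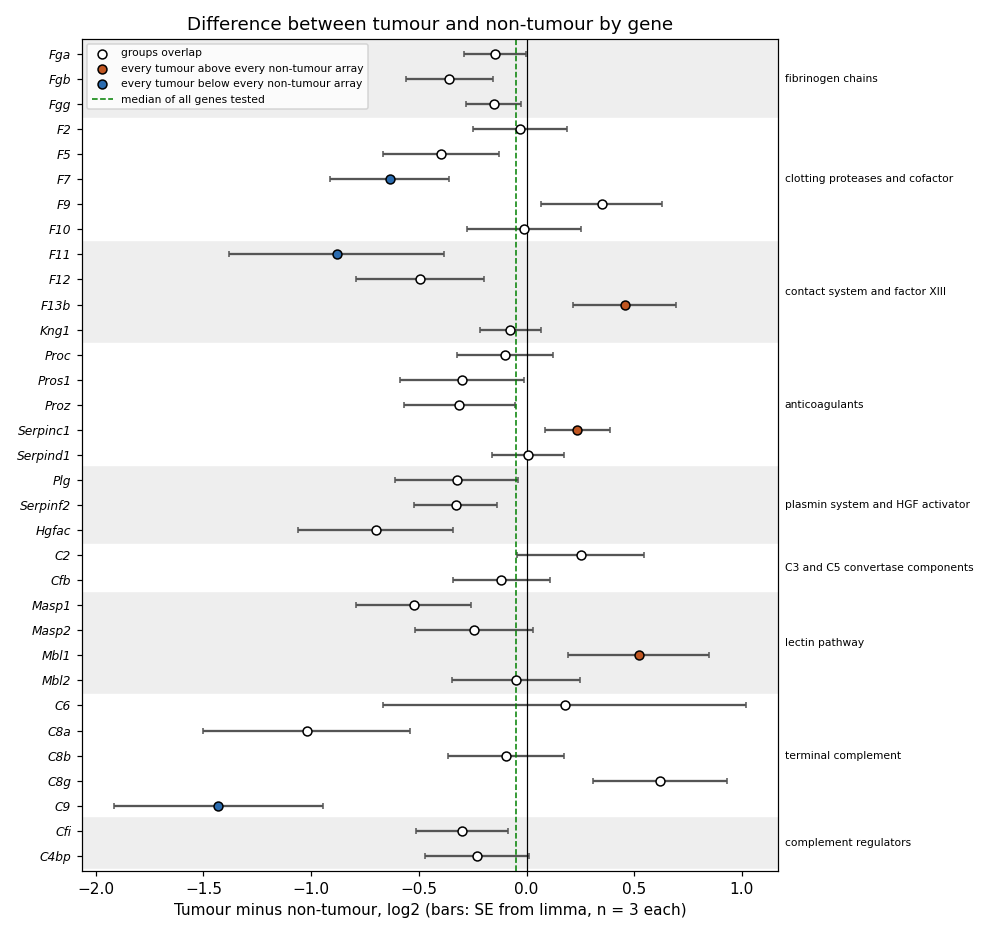
Difference of each measured gene between tumour and non-tumour (horizontal axis, log2 units, bars 1 SE from limma, 3 arrays a group), ordered by role. Filled points are the 6 genes whose groups do not overlap, C9 lies furthest left at -1.43, and the dashed line is the median of all genes tested at -0.05.

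The terminal complement genes differed most among themselves. C9, the protein that polymerises into the wall of the pore, lay at 10.73, 11.24 and 10.70 in non-tumour and at 8.40, 10.44 and 9.53 in tumour. All 3 tumours lay below all 3 non-tumour arrays, tumour 405 furthest and tumour 483 only just. The means were 10.89 ± 0.30 and 9.46 ± 1.02 (SD, n = 3 each), a 2.70-fold lower level in tumour (difference -1.43 ± 0.49, SE, limma unadjusted p = 0.0183, adjusted p = 0.917). The difference was -0.87 without tumour 405 and -1.94 without tumour 483. Without non-tumour 483 the unadjusted p was 0.0574.

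C8 is a single protein of 3 chains encoded by separate genes, and their differences had both signs. C8a, the alpha chain, which inserts into the membrane, lay at 10.19, 10.77 and 10.17 in non-tumour and at 8.43, 9.24 and 10.39 in tumour. Tumours 405 and 483 were below every non-tumour array and tumour 616 was not (difference -1.02 ± 0.48, SE, limma unadjusted p = 0.0662, adjusted p = 0.917). The difference shrank to -0.54 without tumour 405 and grew to -1.51 without tumour 616. C8g, the gamma chain, a small lipocalin-type subunit, lay at 11.66, 11.28 and 11.60 in non-tumour and at 12.64, 11.44 and 12.32 in tumour. Here tumours 405 and 616 were above every non-tumour array while tumour 483 lay among them (0.62 ± 0.31, SE, unadjusted p = 0.0797, adjusted p = 0.917). C8b, the beta chain, which docks on the growing complex, overlapped fully, at 10.37, 10.94 and 10.43 against 10.76, 10.41 and 10.29. Differences between the chains were not tested.

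C6, which joins C5b to start the pore, had the widest spread of all 33 genes, 3.28 log2 units over the 6 arrays. It lay at 6.63, 8.13 and 9.91 in non-tumour and at 7.44, 9.72 and 8.02 in tumour. It was highest in non-tumour 623, the array with Y-linked signal, and next in tumour 483, and its group difference of 0.18 became 0.99 without non-tumour 623 and -0.65 without non-tumour 405. The summed intensity of the 11 of 12 Kupffer cell and macrophage genes measured was also highest on those arrays, 13219 in non-tumour 623 and 11279 in tumour 483, against 1744 to 9374 elsewhere. The part of sex or of macrophages in the level of C6 was not tested.

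**Figure D2:**
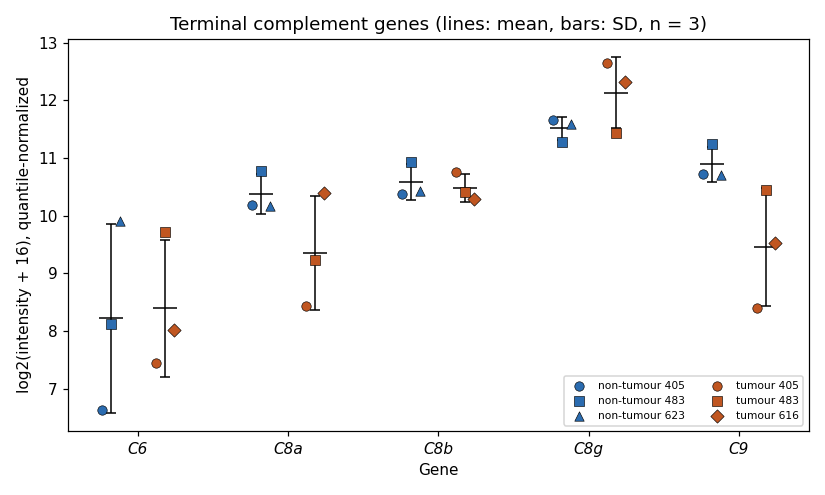
Level of the 5 terminal complement genes on each array (vertical axis, quantile-normalized log2(intensity + 16)), with the mean and SD of 3 arrays a group. C9 is lower in all 3 tumours, C8a in 2 of them, C8g is higher in 2, and C6 varies widely within both groups.

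The genes whose groups did not overlap are shown with the 150 bases before their transcription start, from RefSeq on GRCm38.p6, read 5′ to 3′ on the gene's strand. Capitals mark matches to 4 motifs of liver transcription factors searched on both strands: HNF1 (GTTAATNAT), HNF4 (CAAAGTCCA), C/EBP (TTGCNNAA) and STAT (TTCNNNGAA). C9, F7 and F11 are those lower in every tumour, and F13b, Serpinc1 and Mbl1 those higher.
C9, chr15:6445196-6445345, plus strand: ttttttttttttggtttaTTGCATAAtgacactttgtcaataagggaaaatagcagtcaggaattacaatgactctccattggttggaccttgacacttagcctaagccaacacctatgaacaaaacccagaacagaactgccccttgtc
F7, chr8:13025884-13026033, plus strand: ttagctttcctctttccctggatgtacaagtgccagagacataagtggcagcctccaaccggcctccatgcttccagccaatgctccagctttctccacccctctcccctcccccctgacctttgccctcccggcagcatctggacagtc
F11, chr8:45262032-45262181, minus strand: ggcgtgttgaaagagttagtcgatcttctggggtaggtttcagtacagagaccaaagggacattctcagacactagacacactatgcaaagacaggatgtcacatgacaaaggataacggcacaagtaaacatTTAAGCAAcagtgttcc
F13b, chr1:139501557-139501706, plus strand: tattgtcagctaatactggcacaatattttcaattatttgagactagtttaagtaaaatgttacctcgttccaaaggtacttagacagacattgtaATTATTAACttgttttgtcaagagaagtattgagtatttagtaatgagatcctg
Serpinc1, chr1:160978433-160978582, plus strand: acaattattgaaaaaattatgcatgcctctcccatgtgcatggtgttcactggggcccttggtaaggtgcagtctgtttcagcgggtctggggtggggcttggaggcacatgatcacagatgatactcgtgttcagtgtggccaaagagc
Mbl1, chr14:41151306-41151455, plus strand: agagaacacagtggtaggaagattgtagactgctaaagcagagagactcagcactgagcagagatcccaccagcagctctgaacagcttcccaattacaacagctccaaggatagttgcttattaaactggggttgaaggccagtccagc
C9 and F11 each hold 1 C/EBP match, F13b holds 1 HNF1 match, and the other 3 stretches hold none. Promoters were found for 26 of the 33 genes, and 250 bases before each start were searched. Of these 26, 5 held the C/EBP motif (C9, F9, F11, Fga and Fgb), 3 held HNF1 (C4bp, F13b and Fga), 7 held STAT and 0 held HNF4. Among all 32851 promoters of the table, 9.56% held C/EBP, 0.737% HNF1, 7.02% STAT and 0.384% HNF4. A match describes letters only and says nothing of binding.

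Fibrinogen is assembled from 3 chains in equal number. On the quantile-normalized scale Fga and Fgg varied little, over 0.34 and 0.31 log2 units on the 6 arrays. Fgb ranged over 0.75, beside a median of 0.83 for all genes tested. As deposited, intensities ran from 4837 to 8518 for Fga, from 3793 to 7555 for Fgb and from 6449 to 10165 for Fgg. None of the 3 genes reached an unadjusted p under 0.05. Fga, the alpha chain, lay at 12.66, 12.80 and 12.80 in non-tumour and at 12.46, 12.74 and 12.61 in tumour (difference -0.15 ± 0.14, SE). Fgb, the beta chain, lay at 12.68, 12.83 and 12.52 against 12.08, 12.71 and 12.17 (-0.36 ± 0.20), and Fgg, the gamma chain, at 12.96, 13.06 and 13.09 against 12.90, 12.98 and 12.77 (-0.15 ± 0.13). For all 3 chains tumours 405 and 616 were the lowest arrays, while tumour 483 lay within the non-tumour range.

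Among the clotting proteases, F7, the factor VII that meets tissue factor to start the cascade, lay at 11.12, 10.89 and 10.77 in non-tumour and at 10.25, 10.71 and 9.91 in tumour. All tumours were below all non-tumour arrays, although tumour 483 lay close to non-tumour 623, and the level was 1.55-fold lower (difference -0.64 ± 0.28, SE, limma unadjusted p = 0.0508, adjusted p = 0.917). As deposited the groups overlapped. F2, prothrombin, showed no such separation, at 11.99, 12.35 and 12.16 against 11.73, 12.37 and 12.31 (-0.03 ± 0.22). F10, the factor X that cuts prothrombin, lay at 11.42, 11.87 and 11.83 against 11.19, 12.01 and 11.88 (-0.01 ± 0.27). F9, the X-linked factor IX missing in haemophilia B, lay at 10.96, 10.48 and 11.48 in non-tumour and held between 11.30 and 11.35 in the tumours (0.35 ± 0.28). F5, the cofactor of factor X, stood at 10.75 in tumour 405, with the other arrays between 11.32 and 11.73 (-0.40 ± 0.27). F7, F10 and Proz are direct neighbours among protein-coding genes in the RefSeq annotation, and of these only F7 separated the groups.

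In the contact system, F11, the factor XI protease that activates factor IX, lay at 11.01, 9.17 and 9.19 in non-tumour and at 8.94, 8.64 and 9.15 in tumour. The groups did not overlap, but non-tumour 483 and tumour 616 nearly met and the difference rested on non-tumour 405. It was -0.88 ± 0.50 (SE, limma unadjusted p = 0.115, adjusted p = 0.917) with all arrays and -0.28 without that one. F12, the factor XII that starts the contact pathway, lay at 11.15, 11.51 and 11.20 against 10.22, 11.19 and 10.98 (-0.49 ± 0.30). Kng1, the kininogen from which bradykinin is released, lay at 12.63, 12.62 and 12.54 against 12.50, 12.64 and 12.42. Its spread on this quantile-normalized scale, 0.22 log2 units, was the narrowest of the 33, while deposited intensities ran from 4922 to 7369. Its close copy Kng2 could share signal with it. F13b, the carrier subunit of factor XIII, which cross-links fibrin, lay at 10.45, 10.49 and 10.94 in non-tumour and at 11.23, 10.99 and 11.03 in tumour. Every tumour was above every non-tumour array (0.46 ± 0.24, SE, unadjusted p = 0.0921, adjusted p = 0.917), by 1.37-fold on average, and the difference was 0.64 when non-tumour 623, the non-tumour array nearest to the tumours, was left out. The summed intensity of the 4 of 15 male-biased liver genes measured was likewise low in non-tumour 405 and 483 (920 and 960), 5389 in non-tumour 623 and 4510 to 5782 in the tumours. Cyp2d9, Elovl3 and Cyp7b1 were each lowest in non-tumour 405 and 483, and Cyp2d9 was the brightest in the tumours (11.65 to 11.88). Cyp2u1 did not follow the sum, at 9.45, 7.68 and 9.22 in non-tumour and 10.01, 9.01 and 9.09 in tumour. Xist as deposited was 10.55 to 12.02 in the tumours and 12.07 and 11.95 in non-tumour 405 and 483, against 5.39 in non-tumour 623. The part of sex in the level of F13b was not tested.

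Differences of the anticoagulants lay on both sides of 0. Serpinc1, antithrombin, the main inhibitor of thrombin and factor X, lay at 12.18, 12.24 and 12.45 in non-tumour and at 12.60, 12.50 and 12.48 in tumour. All tumours were above all non-tumour arrays by a small margin, 1.18-fold on average (0.24 ± 0.15, SE, limma unadjusted p = 0.159, adjusted p = 0.917). Serpind1, heparin cofactor II, a second inhibitor of thrombin, differed by 0.01 ± 0.17. Proc, the protease protein C that inactivates factors V and VIII, lay at 11.86, 11.34 and 11.78 against 11.32, 11.72 and 11.64 (-0.10 ± 0.22). Pros1, protein S, its cofactor, stood at 9.59 in tumour 405 and between 10.31 and 10.43 elsewhere. Proz, protein Z, which helps inhibit factor X, ranged from 10.69 in tumour 616 to 11.56 in non-tumour 405 (-0.31 ± 0.26).

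The 3 genes of plasmin formation, plasmin inhibition and growth factor activation all had differences below 0. Plg, plasminogen, lay at 11.61, 12.11 and 11.64 in non-tumour and at 10.90, 11.78 and 11.70 in tumour (-0.32 ± 0.29, SE), with only tumour 405 outside the non-tumour range. Serpinf2, antiplasmin, its main inhibitor, lay at 12.77, 12.32 and 12.47 against 12.16, 12.44 and 11.98 (-0.33 ± 0.19). Hgfac, a protease that activates hepatocyte growth factor, lay at 11.38, 10.31 and 10.91 against 9.62, 10.45 and 10.42. Tumour 405 was lowest, and non-tumour 483 lay below tumours 483 and 616 (-0.70 ± 0.36, limma unadjusted p = 0.0868, adjusted p = 0.917).

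Upstream in complement, Cfb, factor B of the alternative pathway, lay at 11.42, 11.70 and 11.38 in non-tumour and at 11.06, 11.50 and 11.58 in tumour (-0.12 ± 0.23, SE). Its direct neighbour C2, the matching protease of the classical and lectin pathways, lay at 10.87, 10.53 and 9.94 against 10.57, 10.90 and 10.61 (0.25 ± 0.30), with non-tumour 623 the lowest array. Mbl1, mannose-binding lectin A, which recognises microbial sugars, lay at 8.89, 9.85 and 9.78 in non-tumour and at 10.20, 9.86 and 10.03 in tumour. The groups did not overlap, although non-tumour 483 and tumour 483 nearly met (0.52 ± 0.33, SE, limma unadjusted p = 0.148, adjusted p = 0.917), and the difference was 0.22 without non-tumour 405. Mbl2, mannose-binding lectin C, lay at 9.80, 10.43 and 10.25 against 10.13, 9.76 and 10.45 (-0.05 ± 0.30).

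Masp1, a protease that travels with these lectins, lay at 11.75, 11.52 and 11.60 against 10.61, 11.52 and 11.16, with tumours 405 and 616 below every non-tumour array and tumour 483 level with non-tumour 483 (-0.52 ± 0.27, limma unadjusted p = 0.0837, adjusted p = 0.917). Masp2, the lectin-pathway protease that cuts C4 and C2, differed by -0.25 ± 0.27 (SE). The regulators Cfi, the protease that degrades C3b and C4b, and C4bp, its cofactor, differed by -0.30 ± 0.22 and -0.23 ± 0.24 (SE), and both were lowest in tumour 405.

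**Figure D3:**
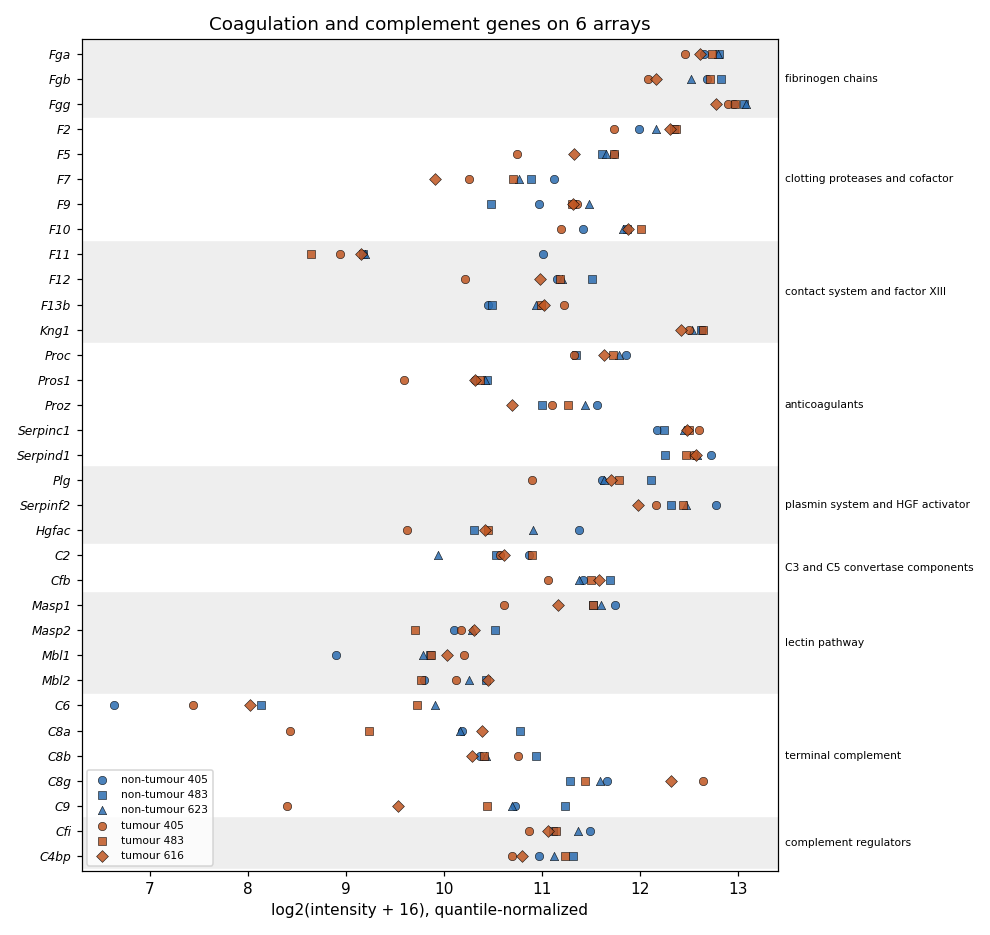
Level of each measured gene on the 6 arrays (horizontal axis, quantile-normalized log2(intensity + 16), blue non-tumour, orange tumour, marker shape by number), grouped by role. Points of most genes lie close together, C6 spreads from 6.63 to 9.91, and tumour 405 (orange circles) is often the leftmost point.

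Between arrays, 21 of the 33 genes ranged over less than 1 log2 unit, and F11, C6, C8a and C9 ranged over 2 or more. The median range was 0.82, beside 0.83 for all genes tested. Tumour 405 was the lowest array for 16 of the 33 (48.5%), including F2, F5, F12, Plg, Masp1, C8a and C9, and for 17.5% of all genes. Its median deviation from the genes' own means was -0.30, against 0.09 in tumour 483 and -0.06 in tumour 616. The non-tumour arrays had median deviations of 0.07, 0.13 and 0.12. These values are on the quantile-normalized scale. As deposited, tumour 405 was the dimmest array, with its median gene at 7.19 and the median of the 33 at 10.71. The other arrays had 7.47 to 8.39 and 10.95 to 11.94. The summed intensity of the hepatocyte reference genes was lowest in tumour 405 too, and so were the sums over 12 stellate cell and fibroblast genes (2739 there, 6127 to 10229 elsewhere) and over macrophage genes. Sums over lymphocyte, neutrophil and platelet genes were also lowest there. Those over endothelial, cholangiocyte and erythroid genes were not, at 7081, 1426 and 1386 beside lowest sums of 5922, 1215 and 1255. The part of these differences, or of the scaling of the arrays, in the low levels of tumour 405 was not tested. Without tumour 405 the median difference of the 33 was -0.08.

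**Figure D4:**
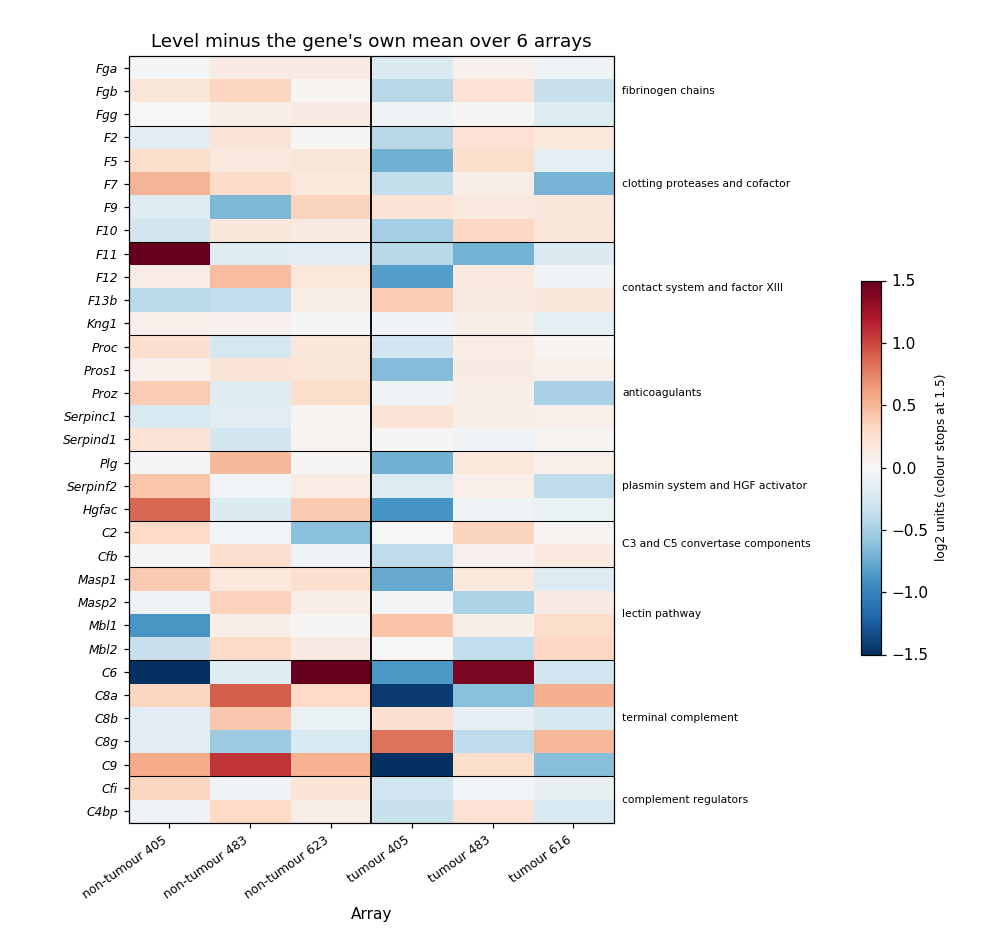
Quantile-normalized level of each gene minus its own mean over the 6 arrays (colour, log2 units, stopping at 1.5 either way), by array and role. The column of tumour 405 is mostly blue, with the opposite colour for F9, F13b, Serpinc1, Serpind1, C2, Mbl1, C8b and C8g.

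Numbers 405 and 483 occur in both groups. Between tumour 405 and non-tumour 405, 24 of the 33 genes were lower in the tumour, where 57.2% of all genes were. Between the 2 arrays numbered 483, 15 of the 33 were lower, where 53.9% of all genes were. C9 differed by -2.33 in the first and -0.80 in the second, C8a by -1.75 and -1.53, and F11 by -2.07 and -0.53. On the quantile-normalized scale 12 genes were lower in both and 6 higher in both, the latter F9, F13b, Serpinc1, Mbl1, C6 and C8g. The shares of all genes lower or higher in both were not counted, so these 2 counts have no background to be read against. As deposited, C6 was instead lower in tumour 405 than in non-tumour 405 (intensities 99.7 and 121).

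The direction of most genes depended on how arrays were brought to a common scale. As deposited the median gene of all stood at -0.48 and the median of the 33 at -0.28, that is, above it. After scaling to the hepatocyte reference genes these were -0.28 and -0.07. Centring each array on its median gene put the median of the 33 at 0.21 and turned the sign of 18. The sign was the same under all 4 scalings for 13 genes. C9, C8a, F7, F11, F12, Hgfac and Masp1 were lower in tumour and C2, C8g, F9, F13b, Mbl1 and Serpinc1 higher under each. C9 was -1.64 as deposited, -1.44 against the hepatocyte reference genes and -1.16 after median centring. It did not pass under any of the 4 (limma adjusted p from 0.223 to 0.964). As deposited, the groups overlapped for all 6 genes that quantile normalization had separated. After median centring they overlapped for all but Serpinc1, and after scaling to hepatocyte genes for all but Serpinc1 and C9.

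**Figure D5:**
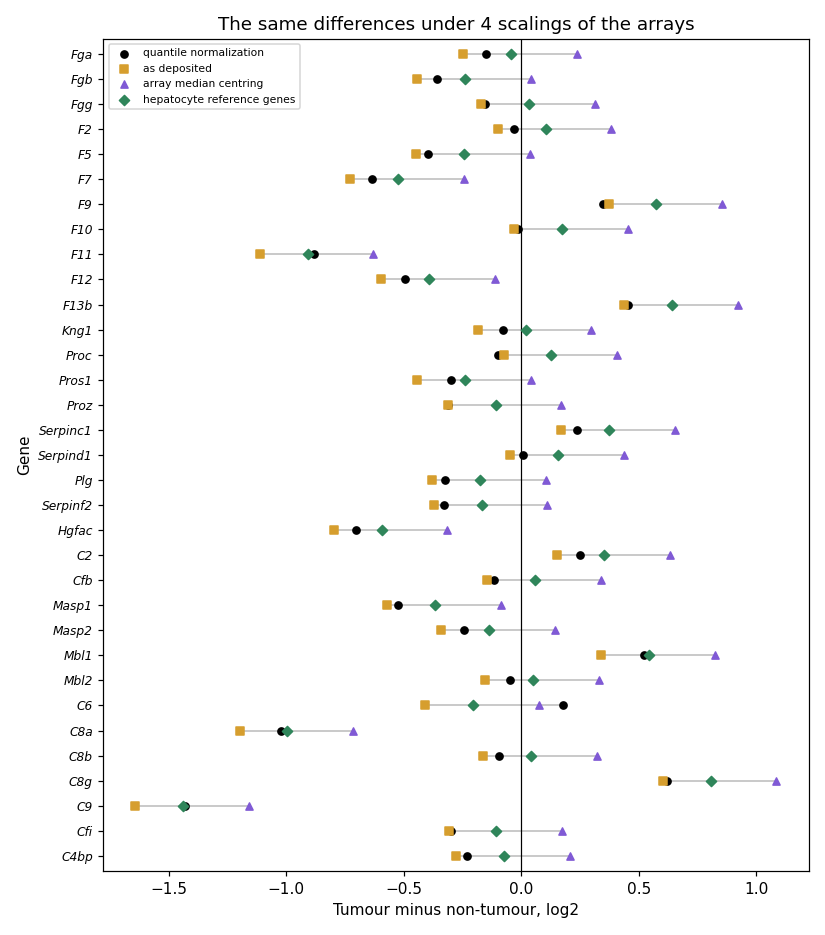
Difference of each gene (horizontal axis, log2 units, tumour minus non-tumour) under 4 scalings of the arrays. C9, C8a, F7, F11, F12, Hgfac and Masp1 stay left of 0, F9, F13b, Serpinc1, C2, Mbl1 and C8g stay right of it, and the other 20 genes have points on both sides.

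Other genes of both pathways were taken from lists by function. Of 29 measured genes of coagulation and fibrinolysis, 0 passed the test. At an unadjusted p under 0.05, 1 was higher and 0 were lower, where 2.65% and 0.993% of all genes were, and the median difference was -0.04. The higher one was S100a10, the partner of annexin A2 in a receptor for plasminogen, at 10.70, 10.31 and 11.20 in non-tumour and 11.70, 11.46 and 11.25 in tumour (0.73 ± 0.28, SE, limma unadjusted p = 0.0308, adjusted p = 0.917). Pzp, a broad protease inhibitor of mouse plasma, lay at 12.86, 12.74 and 12.76 against 11.91, 12.61 and 12.47 (-0.46 ± 0.20) without overlap. Hrg, the histidine-rich glycoprotein, lay at 12.31, 12.28 and 12.25 against 11.77, 12.25 and 11.93 (-0.30 ± 0.18), also lower without overlap, although tumour 483 and non-tumour 623 nearly met. F2rl3, a thrombin receptor of platelets, was named after its values were seen. It lay at 6.83, 6.88 and 6.83 against 7.13, 6.95 and 7.14 and, like S100a10, was higher without overlap. Thus 2 of the 29 were without overlap in each direction, where 3.93% of all genes were higher and 3.91% lower. F8, the cofactor of factor IX made largely by endothelium, differed by -0.72 ± 0.42, and St14, a membrane protease, by -0.41 ± 0.27.

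Of 29 other complement genes measured, 0 passed and 0 reached an unadjusted p under 0.05 in either direction, with a median of -0.18. Serping1, the C1 inhibitor, lay at 12.40, 12.49 and 12.53 against 11.36, 12.39 and 12.01 (-0.56 ± 0.26, SE, unadjusted p = 0.0621, adjusted p = 0.917). It was the only gene of this list without overlap, 1 of 29 lower and 0 higher, where 3.91% and 3.93% of all genes were. Hc, the mouse C5, lay at 11.50, 11.70 and 11.73 against 10.40, 11.59 and 10.98 (-0.65 ± 0.31), with tumours 405 and 616 below every non-tumour array and tumour 483 among them. Cpn2, a subunit of carboxypeptidase N, differed by -0.67 ± 0.37. Cd59b, which blocks the membrane pore, was dim and its groups overlapped, at 5.12, 6.19 and 7.63 against 7.84, 6.86 and 7.45 (1.07 ± 0.57). Vsig4, the complement receptor of Kupffer cells, lay at 9.77, 11.22 and 11.78 against 7.48, 11.21 and 9.46, lowest in tumour 405 (-1.54 ± 0.89). Platelet genes, which mark blood in the tissue, summed to 1123 to 1351 in non-tumour over 7 measured genes and to 902, 3092 and 1098 in tumour.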

How the data were processed

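The table deposited by the authors holds linear intensities of Affymetrix arrays, which the labels describe as PLIER values of full exons; the submitters' processing notes name mm9. The version, background correction and between-array scaling are unknown. Of 238609 features, 24343 were annotated with 1 gene symbol, 1797 with several and 212469 with none, and 23782 of the first were matched by Entrez number, with 0 differing symbols. Kept features had a mean intensity over 6 arrays of at least 59.1, the 25th percentile of annotated features.

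The authors' intensities were taken as log2(intensity + 16), which understates differences of dim genes, and quantile-normalized over features with 1 symbol. A gene was the median of its kept features. An earlier treatment of this table tested the values as deposited. That scale is an alternative here, because the array medians differed. Tumour was compared with non-tumour with limma 3.58.1 in R 4.3.3 (lmFit, eBayes with an intensity trend) over 17019 genes and 6 arrays, with Benjamini-Hochberg adjustment over all genes and a threshold of 0.05. Tested on simulated data with the real means and spreads of the 17019 genes, the same steps called 16.3% of 2-fold and 64.7% of 4-fold changes, with at most 6 unchanged genes called per draw. The simulated spread was drawn independently for each gene, so shifts shared by many genes on an array were left out. These shares therefore need not hold for the real arrays, where 0 genes were called although differences ran from -3.59 to 3.56.

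Genes and lists were chosen with earlier results of these data known, so no p was adjusted over a list. Of the 33 genes, those at an unadjusted p under 0.05, those without overlap and a fixed core were to be given array by array; some others are given more fully than this rule asks, and F9 by its range in tumour. From each list of other pathway genes the 5 with the smallest p were named. The number of arrays limits the precision.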

Additional observations from a re-analysis of the deposited data

How the results depend on the processing

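Limma called 0 of the 33 genes, higher or lower, under every one of the 18 alternatives, and 0 genes of all, except as deposited (14 higher and 44 lower) and after scaling to hepatocyte reference genes (31 and 29). In both of these fits the estimated prior was infinite, so all genes took their spread from the trend. At an unadjusted p under 0.05 the main fit had 0 of the 33 higher and 1 lower. As deposited 2 were lower (C8a and C9), where 8.26% of all genes were, and 0 were without overlap in either direction, where 0.135% of all genes were higher and 11.8% lower. After median centring 2 were higher (3.63% of all genes), and the median of the 33 turned from -0.15 to 0.21. Without overlap 3 were then higher (C2, Serpinc1 and Serpind1, beside 4.12% of all genes) and 0 lower (2.23% of all). With hepatocyte scaling 1 was higher and 2 lower (1.57% and 1.93% of all genes), and 1 in each direction did not overlap (0.799% higher and 4.27% lower of all). Without an intensity trend 2 were lower (1.14% of all). Pseudocounts of 1 and 64, both other filters, the brightest feature and robust eBayes changed none of these counts.

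With the label number as a random replicate block (consensus correlation 0.16) 3 were lower (255 of all 17019 genes), and as a fixed block, where only 405 and 483 carry the difference, 3 were lower (1.66% of all) and 1, C6, higher (4.56% of all). Both fits used quantile-normalized levels, and as deposited C6 was lower in tumour 405 than in non-tumour 405 (intensities 99.7 and 121). Deviations of the samples sharing a number correlated at 0.28 for 405 and -0.01 for 483, and whether equal numbers mark 1 animal is not settled by these values.

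Leaving out 1 array at a time gave 0 to 1 of the 33 higher and 1 to 5 lower at an unadjusted p under 0.05, 3 to 4 higher and 3 to 13 lower without overlap, and a median between -0.22 and -0.08. Over all genes these fits had 1.19% to 6.05% higher and 0.488% to 4.20% lower at that p. Without overlap they had 5.71% to 12.3% of all genes higher and 6.77% to 19.0% lower. The 5 and the 13 arose without tumour 483, and C9 was not among the lower without non-tumour 483. A group of 2 arrays separates more easily, and without tumour 483 12.3% of all genes were higher and 11.6% lower without overlap. Of the 33, 24 kept their sign in all 6 such fits. The cause of the changes with scaling was not tested.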
